A study of Mus musculus with 15 samples.

Results

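Ribosome biogenesis factors are the proteins that make ribosomes without being part of the finished particle. The 39 genes described here were taken as a named list of nucleolar and pre-ribosomal factors, and each was found on the array through the RefSeq accession of its probes. They are 39 of 17339 genes measured. All 39 were measured, and the probe used for each was well above background on all 15 arrays. The list holds 4 genes of RNA polymerase I and its regulation, 8 of small nucleolar ribonucleoproteins (snoRNPs), 12 of the small subunit, 13 of the large subunit and 2 nucleolar chaperones.

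The arrays measured total RNA of whole pancreas from male C57BL/6J mice, 1 array per animal. Cerulein, a cholecystokinin analogue that overstimulates the acinar cell and elicits pancreatitis in rodents, or saline was injected once into the peritoneum after 18 h of fasting, and tissue was taken 3 h later. The groups were 4 transgenic (TG) mice given 50 µg/kg cerulein, 3 TG mice given saline, 4 wild type (WT) mice given cerulein and 4 WT mice given saline. Saline mice are labelled 0 h, although the protocol gives them the same interval. The series text gives 4 animals in each group, and the age of the mice, the promoter of the transgene and its line are not given in the sources used here. Values are listed below in the order of the animal numbers, which are 13, 14, 15 and 16 for TG cerulein, 2, 3 and 4 for TG saline, 9, 10, 11 and 12 for WT cerulein, and 5, 6, 7 and 8 for WT saline. The numbers were not shared between groups. The series concerns betacellulin, a ligand of ERBB receptors, and its endogenous transcript Btc differed by 0.49 ± 0.45 on the log2 scale between TG and WT after cerulein (SE, n = 4 each, adjusted p = 0.837) and by 0.55 ± 0.48 after saline (n = 3 and 4, adjusted p = 1.0). Its probe was well above background on 4 of 4 TG cerulein, 2 of 3 TG saline, 4 of 4 WT cerulein and 1 of 4 WT saline arrays, so the saline difference is poorly measured. The label TG was therefore not checked by this gene, and whether its probe reads the transgene is not given in the sources used here.

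A ribosome is built in the nucleolus, where RNA polymerase I transcribes the precursor of the large ribosomal RNAs. SnoRNPs guide the methylation and pseudouridylation of that precursor, a large particle called the small subunit processome folds and cleaves its first part, and other assembly factors mature the large subunit before both are exported. Genes for these factors are commonly transcribed together when a cell grows, and MYC with its partner MAX is a known activator of many of them. The acinar cell, which makes up most of the pancreas, is among the most active protein-producing cells of the body.

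Values are log2 signal relative to the 75th percentile of the array, so a difference of 1 between groups is a doubling, and signals of different genes cannot be ranked against each other. Calls rest on limma over all 17339 genes, at a threshold of 0.05 on the adjusted p. The 15 arrays lie on 3 slides, and slide 2 holds 3 cerulein arrays and no saline array. Slide 1 holds TG cerulein 13 and 14, TG saline 2, WT cerulein 9 and WT saline 5. Slide 2 holds TG cerulein 16 and WT cerulein 11 and 12, and slide 3 holds the other 7. Differences are given without slide first, then with slide as a block, and for the genes called without slide also within slides 1 and 3, where slide 1 sets single arrays against each other except for the 2 TG cerulein arrays. The 75th percentile of signal, in units of fluorescence intensity, was 265 to 529 in TG cerulein, 179 to 283 in TG saline, 201 to 410 in WT cerulein and 152 to 237 in WT saline. The part of this brightness in the results was not tested.

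After cerulein, 11 of the 39 genes rose in TG pancreas and 8 rose in WT pancreas, which is 28.2% and 20.5% of the list. Among all genes 4.78% rose in TG and 5.63% in WT. One of the 11, Nolc1, has probes that read opposite ways, and without it 10 of 38 (26.3%) rose in TG and 8 of 38 (21.1%) in WT. None of the 39 fell by the probe used, where 3.41% of all genes fell in TG and 8.35% in WT. Dimmer probes of Nip7 and Nolc1 fell in both genotypes, as given below. With slide as a block, 24 of 39 rose in TG, where 15.2% of all genes did, and 19 of 39 rose in WT, where 13.8% of all genes did. Without Nolc1 these counts are 23 and 18 of 38. Again none of the 39 fell by the probe used, where 8.35% of all genes did in TG and 7.79% in WT. A dimmer probe of Pes1 fell in TG in this fit. The median difference of the 39 was 0.51 in TG and 0.22 in WT, against −0.06 for all genes in each. With slide in the model it was 0.77 in TG and 0.57 in WT. Within slide 1 the medians were 0.55 in TG and 0.56 in WT, and within slide 3 they were 0.86 in TG and 0.68 in WT. Every cerulein array lay above every saline array for 20 of the 39 in TG, against 9.94% of all genes, and for 12 in WT, against 7.34%. The genes that rose in both genotypes were Nop58, Wdr43, Ddx21, Tsr1, Rrp12, Gnl2, Grwd1 and Nop14.

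The counts without slide depended on single arrays. Without TG saline 2 the number that rose in TG was 6, and it was 7 without TG saline 3 and 7 without TG saline 4. Of all 17339 genes, 585, 509 and 547 rose in TG in these fits, against 829 with all arrays. In WT it was 4 without WT saline 5, 4 without WT cerulein 9, 5 without WT saline 6 and 5 without WT saline 7. Nop58 and Rrp12 were called in both genotypes in each of these fits. With slide as a block, the lowest count in WT was 13, without WT cerulein 10, the one WT cerulein array on slide 3. In that fit 1340 of all genes rose in WT, against 2385 with all arrays.

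**Figure D1:**
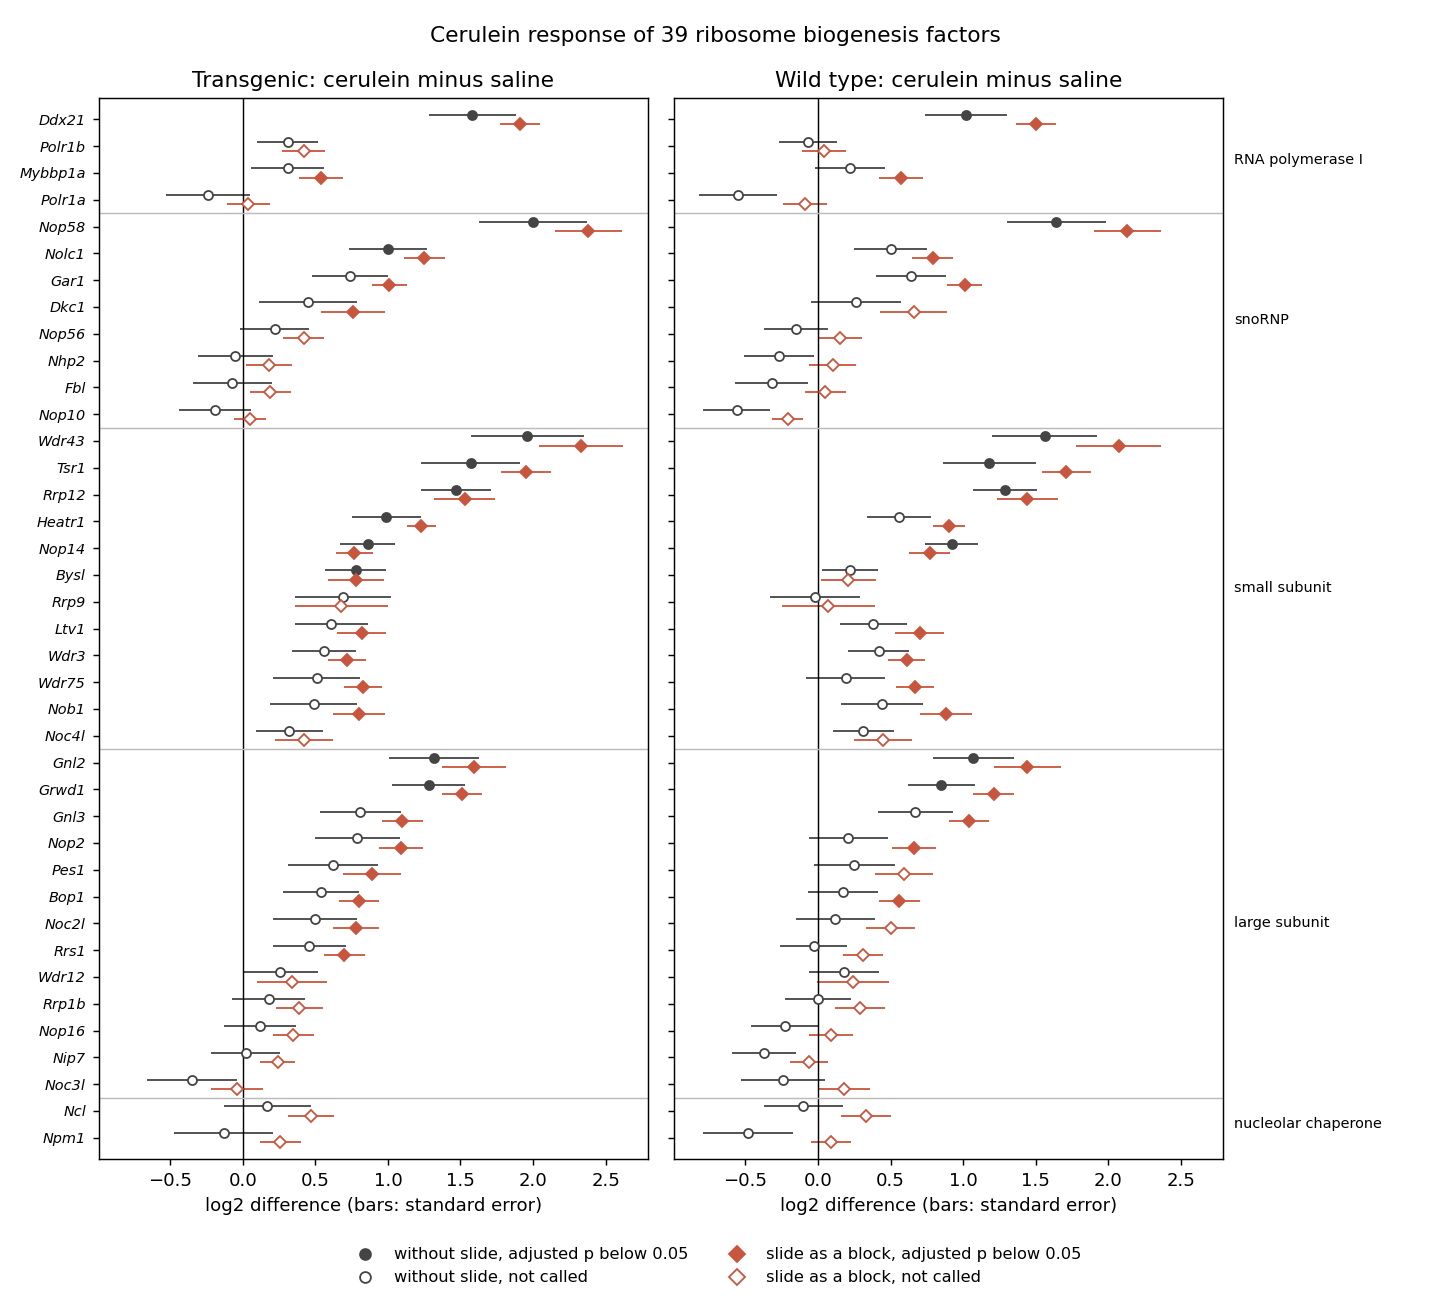
Log2 difference between cerulein and saline for each of the 39 genes (rows, grouped by role) in TG pancreas on the left and WT pancreas on the right. Circles are estimates without slide and diamonds estimates with slide as a block, filled where the adjusted p is below 0.05, with bars of 1 standard error. The filled circles, 11 in TG and 8 in WT, all lie right of 0, and most diamonds lie right of their circles.

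The median signal of the 39 genes on each array shows both treatment and slide. It was 2.02, 1.90, 2.52 and 1.61 in TG cerulein, against 1.29, 1.75 and 1.73 in TG saline. It was 1.85, 2.44, 1.48 and 1.41 in WT cerulein, against 0.98, 1.69, 1.63 and 1.60 in WT saline. These medians overlap between treatments in both genotypes, and the cerulein arrays below a saline array are the 3 of slide 2. On slide 1 and on slide 3 every cerulein array lies above every saline array of the same slide. Of the variance of a gene over the 15 arrays, the median over the 39 was 36.0% between the 4 groups, 47.1% between slides once groups were taken out, and 12.5% left after both. Deviations from the group means correlated between the 39 genes at a median r of 0.72 over 741 pairs, which share the same 15 arrays. With slide also taken out the median r was 0.17. The 39 genes thus do not give 39 separate readings of the treatment.

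**Figure D2:**
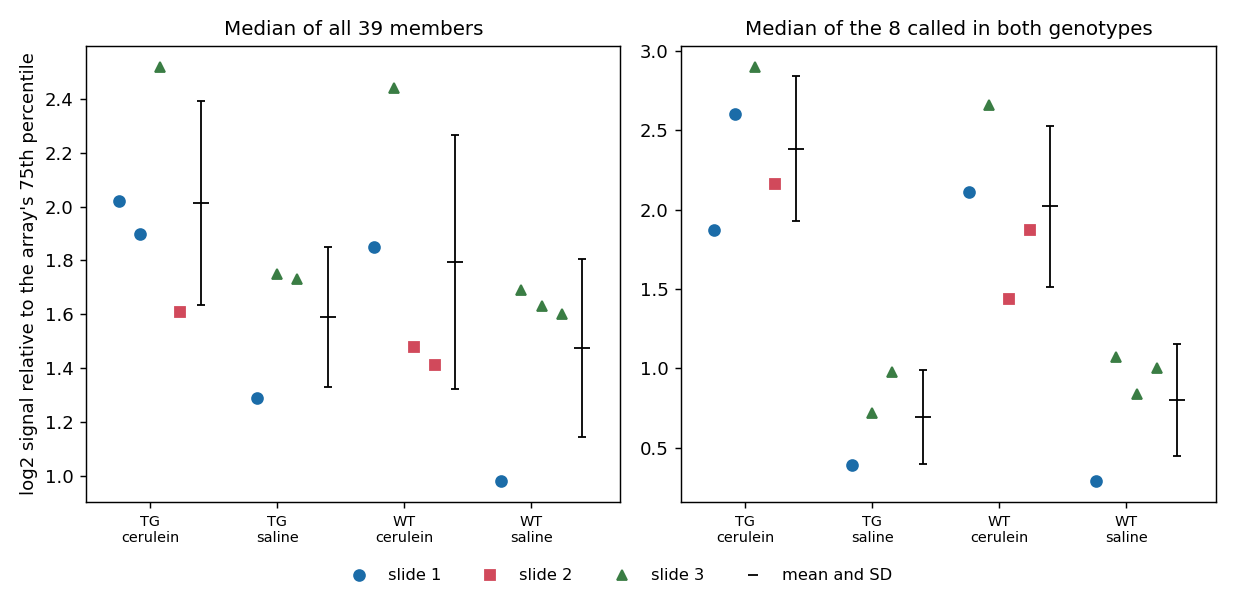
Median log2 signal on each array (points, by group) of all 39 genes on the left and of the 8 genes called in both genotypes on the right, with marker shape and colour for the slide and the group mean and SD beside the points. On the left the 3 slide 2 arrays, at 1.41 to 1.61, lie among the saline arrays. On the right, where the genes were chosen for this difference, the lowest cerulein array is at 1.44 and the highest saline array at 1.07.

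Among the 19 genes given array by array below, 5 have the hexamer CACGTG, the E-box that MYC and MAX bind, in the 250 bases before to 50 bases after their RefSeq transcription start. They are shown because they carry this letter sequence and are among the genes given array by array. Mybbp1a and Pes1 also carry it and rose with slide, but their groups overlapped, so they are not shown. Each window of 30 bases (RefSeq, GRCm38.p6) reads 5′ to 3′ on the strand of the gene, with the hexamer in capitals:
Wdr43 chr17:71616220-71616249 plus strand: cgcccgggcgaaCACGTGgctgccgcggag
Tsr1 chr11:74898092-74898121 plus strand: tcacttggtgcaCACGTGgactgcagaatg
Grwd1 chr7:45830740-45830769 minus strand: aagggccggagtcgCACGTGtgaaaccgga
Ltv1 chr10:13193092-13193121 minus strand: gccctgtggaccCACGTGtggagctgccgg
Nop2 chr6:125131811-125131840 plus strand: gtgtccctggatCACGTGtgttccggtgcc
The hexamer begins 18 bases after the start in Wdr43, 25 in Tsr1, 35 in Grwd1 and 29 in Ltv1, and 60 bases before the start in Nop2. CACGTG is its own reverse complement, so 1 search covers both strands. Among the 33 of 39 genes with an entry, 7 (21.2%) had the hexamer, the other two being Mybbp1a and Pes1. Among all tested genes with an entry the share was 1388 of 13759 (10.1%), and among all RefSeq genes with an entry 2187 of 27025 (8.09%). In the 250 bases before the start alone the shares run the other way, with 1 of 33 (3.03%) for these genes, against 1178 of 13759 (8.56%) of tested genes, so the higher share comes from the 50 bases after the start. Of the 9 that rose without slide and have an entry, 3 had it, and Nop58 and Ddx21 were among those without it. Of the other 24 with an entry, 4 had it, all genes that rose with slide only. The 24 include 13 that rose in neither fit, and none of these had it. These counts are small and their difference was not tested. Whether any factor binds these letters in pancreas was not measured.

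The transcription group had 1 gene of 4 called, in both genotypes. Ddx21, a nucleolar RNA helicase that links transcription of ribosomal RNA to its processing, had log2 signals of 3.36, 3.76, 4.20 and 3.19 in TG cerulein, against 1.90, 2.05 and 2.20 in TG saline. In WT mice it had 3.22, 4.00, 2.92 and 2.87 after cerulein, against 1.83, 2.32, 2.39 and 2.40 after saline. All cerulein arrays lay above all saline arrays, and the slide 3 array was the highest in each cerulein group. The difference was 1.58 ± 0.30 in TG (SE, n = 4 and 3, adjusted p = 0.00452) and 1.02 ± 0.28 in WT (n = 4 each, adjusted p = 0.0265). With slide it was 1.91 ± 0.14 in TG and 1.50 ± 0.14 in WT (adjusted p = 3.26e-06 and 2.18e-05), and within slides 1 and 3 it was 1.66 and 2.08 in TG and 1.39 and 1.63 in WT. A second, dimmer probe of Ddx21 gave 0.31 in TG and −0.09 in WT without slide, neither called, and 0.65 in TG with slide (adjusted p = 0.00741), so the size depends on the probe. The WT call was lost without WT saline 5, 6 or 7 or WT cerulein 9 (adjusted p = 0.0581, 0.0602, 0.0522 and 0.0524). With the mean of both probes the call was lost in both genotypes (0.94 in TG, adjusted p = 0.0665, and 0.47 in WT, adjusted p = 0.265).

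The subunits of the polymerase itself were not called. Polr1a, its largest subunit, differed by −0.24 in TG and −0.55 in WT, and by 0.04 and −0.09 with slide. Polr1b, the second largest, differed by 0.31 in TG and −0.07 in WT. Mybbp1a, a nucleolar protein that regulates synthesis and processing of ribosomal RNA, was at 0.31 in TG and 0.22 in WT without slide and rose with slide as a block, by 0.54 ± 0.15 in TG (adjusted p = 0.0234) and 0.57 ± 0.15 in WT (adjusted p = 0.0206). Its groups overlapped in both genotypes. The TG call with slide was lost without TG saline 3 or 4 or TG cerulein 15 (adjusted p = 0.0776, 0.0814 and 0.127), and the WT call without WT cerulein 10 (0.39, adjusted p = 0.231).

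Of the 8 snoRNP genes, 2 were called higher in TG and 1 in WT without slide, and 4 in TG and 3 in WT with slide. The TG count and both counts with slide include Nolc1, by the brighter of its 2 probes. Nop58, a core protein of box C/D snoRNPs, which guide methylation, had the largest difference of all 39 genes. Its log2 signal was 3.25, 3.99, 4.42 and 3.48 in TG cerulein, against 1.55, 1.82 and 1.97 in TG saline. In WT it was at 3.25, 4.03, 2.67 and 3.34 after cerulein, against 0.83, 1.85, 1.98 and 2.07 after saline. The lowest cerulein array of either genotype, WT cerulein 11, was above the highest saline array. Nop58 was 4.00-fold higher in TG cerulein (log2 2.0 ± 0.37, adjusted p = 0.00363) and 3.11-fold higher in WT cerulein (log2 1.64 ± 0.34, adjusted p = 0.00587). With slide the differences were 2.38 ± 0.23 in TG and 2.13 ± 0.23 in WT, within slide 1 they were 2.07 in TG and 2.41 in WT, and within slide 3 they were 2.52 and 2.06.

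The partner proteins Nop56 and Fbl of the same particle were not called. Nop56 differed by 0.22 ± 0.24 in TG and −0.15 ± 0.22 in WT, and fibrillarin (Fbl), the methyltransferase of box C/D snoRNPs, by −0.07 ± 0.27 in TG and −0.32 ± 0.25 in WT. With slide Nop56 was at 0.42 in TG and 0.15 in WT, and Fbl at 0.19 in TG and 0.05 in WT, again not called. The difference between Nop58 and its partners was not tested. A second probe of Nop56 was called in TG with slide (0.66, adjusted p = 0.00454).

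Nolc1, the nucleolar phosphoprotein NOPP140 that accompanies snoRNPs, gave opposite readings from its 2 probes. The brighter probe was at 2.82, 3.16, 3.86 and 3.07 in TG cerulein, against 1.82, 2.42 and 2.44 in TG saline. WT arrays were at 2.81, 3.33, 2.72 and 2.91 after cerulein, against 2.14, 2.42, 2.65 and 2.54 after saline. The groups did not overlap in either genotype, by a narrow margin in WT. The brighter probe rose in TG by 1.00 ± 0.27 (adjusted p = 0.0322), was not called in WT (0.50 ± 0.25, adjusted p = 0.185) and rose in both with slide (1.25 and 0.79). Within slides 1 and 3 it was at 1.17 and 1.44 in TG. The dimmer probe fell by 1.35 in TG (adjusted p = 0.0402) and by 2.05 in WT (adjusted p = 0.00142). The mean of both probes was −0.17 in TG (adjusted p = 0.77), so no direction can be given to the gene. The TG call of the brighter probe was also lost without any 1 of the 3 TG saline arrays (adjusted p = 0.132, 0.0742 and 0.0677, in the order of the arrays) and without TG cerulein 14 or 15 (adjusted p = 0.0702 and 0.0652).

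Among the box H/ACA proteins, which form the pseudouridylation particles, Gar1 rose in both genotypes with slide as a block. Gar1 was at 3.47, 3.68, 4.02 and 3.41 in TG cerulein, against 2.64, 2.96 and 3.12 in TG saline. The WT signals were 3.73, 4.11, 3.41 and 3.30 after cerulein, against 2.51, 3.24, 3.04 and 3.21 after saline. All cerulein arrays lay above all saline arrays of their genotype. The difference was 0.74 ± 0.26 in TG and 0.64 ± 0.24 in WT without slide (adjusted p = 0.0993 and 0.0880), and 1.01 ± 0.12 in each with slide (adjusted p = 9.85e-05 and 0.000116). Dkc1, the pseudouridine synthase dyskerin, rose only in TG with slide (0.76 ± 0.22, adjusted p = 0.0296), with 0.66 ± 0.23 in WT (adjusted p = 0.0608). Without slide Dkc1 was at 0.45 in TG and 0.26 in WT. Its call was lost without TG saline 2 or 4, TG cerulein 14 or 15 or WT cerulein 10, with adjusted p from 0.0528 to 0.115. Nhp2 and Nop10, the small core proteins of the particle, were not called in any of these fits, with differences of −0.05 and −0.19 in TG and −0.27 and −0.56 in WT without slide.

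The small subunit group held the most calls. Of its 12 genes 6 rose in TG and 4 in WT without slide, and 10 rose in TG and 9 in WT with slide. The group's median difference was 0.74 in TG and 0.43 in WT. Wdr43, the homologue of yeast Utp5 in the small subunit processome, was at 2.22, 3.38, 3.74 and 2.91 in TG cerulein, against 0.81, 1.09 and 1.41 in TG saline. Wild type arrays read 2.83, 3.64, 1.93 and 2.69 after cerulein, against 0.75, 1.38, 1.32 and 1.42 after saline. No cerulein array reached down to the saline arrays in either genotype. Wdr43 was 3.88-fold higher in TG cerulein (log2 1.96 ± 0.39, adjusted p = 0.00601) and 2.94-fold higher in WT cerulein (log2 1.56 ± 0.36, adjusted p = 0.0111), and with slide the log2 differences were 2.33 in TG and 2.07 in WT. Within slides 1 and 3 they were 1.98 and 2.49 in TG and 2.08 and 2.26 in WT. Its dimmer probe gave 0.40 in TG and 0.14 in WT without slide, and the mean of both probes was not called (1.18 in TG, adjusted p = 0.0652, and 0.85 in WT, adjusted p = 0.111). With slide the dimmer probe was called at 0.80 in TG (adjusted p = 0.0142) and 0.64 in WT (adjusted p = 0.0444).

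Heatr1, the homologue of yeast Utp10, was at 3.22, 3.39, 3.86 and 3.21 in TG cerulein, against 2.20, 2.56 and 2.53 in TG saline. In WT pancreas it read 3.26, 3.58, 2.79 and 2.93 after cerulein, against 2.30, 2.68, 2.65 and 2.68 after saline. The groups did not overlap in either genotype. Heatr1 rose in TG by 0.99 ± 0.24 (adjusted p = 0.0180), a call lost without TG saline 2, 3 or 4 (adjusted p = 0.0777, 0.0548 and 0.0559), and was at 0.56 ± 0.22 in WT (adjusted p = 0.101). With slide it rose by 1.23 ± 0.10 in TG and by 0.90 ± 0.11 in WT (adjusted p = 1.1e-05 and 0.000122), and within slides 1 and 3 it was at 1.11 and 1.32 in TG.

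Nop14, another processome protein, was at 0.27, 0.35, 0.45 and 0.66 in TG cerulein, against −0.30, −0.53 and −0.46 in TG saline. WT mice had 0.24, 0.40, 0.46 and 0.66 after cerulein, against −0.25, −0.60, −0.38 and −0.69 after saline. The groups stood apart in both genotypes, and the highest array of each cerulein group was one of slide 2. Nop14 rose by 0.86 ± 0.19 in TG (adjusted p = 0.0113) and by 0.92 ± 0.18 in WT (adjusted p = 0.00325), and with slide by 0.77 in each. On slides 1 and 3 alone they were 0.61 and 0.94 in TG and 0.49 and 0.96 in WT. The TG call was lost without TG saline 3 (adjusted p = 0.0706) or 4 (adjusted p = 0.0572). Noc4l, whose yeast homologue pairs with Nop14, was not called, at 0.32 ± 0.23 in TG and 0.31 ± 0.21 in WT.

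Wdr3, the Utp12 homologue, was at −0.13, −0.09, 0.43 and 0.23 in TG cerulein, against −0.56, −0.39 and −0.39 in TG saline. In WT mice it was at −0.05, 0.30, −0.28 and −0.20 after cerulein, against −0.86, −0.31, −0.47 and −0.26 after saline. The TG groups did not overlap and the WT groups did. Wdr3 was at 0.56 in TG and 0.42 in WT without slide and rose with it, by 0.72 ± 0.13 in TG and 0.61 ± 0.13 in WT (adjusted p = 0.00224 and 0.00738). The WT call was lost without WT cerulein 10 (0.54, adjusted p = 0.0842). Wdr75, the Utp17 homologue, and Nob1, the endonuclease that trims the small subunit RNA to its final end, also rose with slide only, by 0.83 and 0.80 in TG and by 0.67 and 0.88 in WT. Without slide they were at 0.51 and 0.49 in TG and 0.19 and 0.44 in WT, and their groups overlapped. The WT call of Nob1 was lost without WT cerulein 10 (0.75, adjusted p = 0.0662). Rrp9, a protein of the U3 snoRNP that guides early cleavage, was not called in either fit, at 0.69 ± 0.33 in TG and −0.02 ± 0.31 in WT without slide. The WT value leans on WT saline 5, at 0.87, where the other WT saline arrays were at −0.73 to −0.64.

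Rrp12, which acts in maturation and export of the small subunit precursor, was at −0.52, −0.54, −0.20 and −0.73 in TG cerulein, against −1.88, −2.34 and −1.68 in TG saline. The WT arrays read −0.55, −0.31, −0.82 and −0.75 after cerulein, against −1.49, −1.81, −2.10 and −2.20 after saline. Every cerulein array of both genotypes lay above every saline array of both. Rrp12 was 2.77-fold higher in TG cerulein (log2 1.47 ± 0.24, adjusted p = 0.00145) and 2.45-fold higher in WT cerulein (log2 1.29 ± 0.22, adjusted p = 0.00146), and with slide the log2 differences were 1.53 and 1.44. On slides 1 and 3 alone they were 1.35 and 1.82 in TG and 0.94 and 1.72 in WT.

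Tsr1, a factor of the late precursor, was at 1.53, 1.90, 2.38 and 1.61 in TG cerulein, against −0.03, 0.34 and 0.55 in TG saline. In WT it was at 1.61, 2.44, 0.94 and 1.27 after cerulein, against −0.18, 0.76, 0.36 and 0.59 after saline. The groups did not overlap in either genotype. Tsr1 rose by 1.57 ± 0.34 in TG (adjusted p = 0.0103) and by 1.18 ± 0.32 in WT (adjusted p = 0.0236), and its second probe gave 1.61 and 1.24. With slide it rose by 1.95 in TG and 1.71 in WT, and within slides 1 and 3 it was at 1.74 and 1.94 in TG and 1.80 and 1.87 in WT. The TG call was lost without TG saline 2 (1.41, adjusted p = 0.0503), and the WT call without WT saline 5 or 7 or WT cerulein 9 (adjusted p = 0.0547, 0.0610 and 0.0523).

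Ltv1, also of the late precursor, was at 2.82, 3.11, 3.65 and 3.05 in TG cerulein, against 2.39, 2.61 and 2.66 in TG saline. WT arrays were at 3.07, 3.41, 2.42 and 2.61 after cerulein, against 2.51, 2.48, 2.48 and 2.54 after saline. The groups overlapped in WT through 1 slide 2 array, WT cerulein 11. Ltv1 was at 0.61 in TG and 0.38 in WT without slide and rose with it, by 0.82 ± 0.17 in TG and 0.70 ± 0.17 in WT (adjusted p = 0.00418 and 0.0116). The WT call was lost without WT cerulein 10 (0.59, adjusted p = 0.125). Bysl, bystin, was at 2.76, 2.91, 2.81 and 2.95 in TG cerulein, against 2.02, 2.14 and 2.06 in TG saline. The WT signals were 2.79, 2.89, 2.71 and 2.83 after cerulein, against 2.72, 2.25, 3.05 and 2.31 after saline. The TG saline arrays were the 3 lowest of the 15, and the WT groups overlapped. Bysl rose in TG by 0.78 ± 0.21 without slide and 0.78 ± 0.19 with it (adjusted p = 0.0289 and 0.0105) and was at 0.22 ± 0.19 in WT (adjusted p = 0.436). The TG call without slide was lost without any 1 TG saline array (adjusted p = 0.0863, 0.0928 and 0.108) and without TG cerulein 14 or 16 (adjusted p = 0.0793 and 0.0611), and the call with slide without TG saline 2 (0.73, adjusted p = 0.0597). Within slides 1 and 3 Bysl was at 0.81 and 0.71 in TG.

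**Figure D3:**
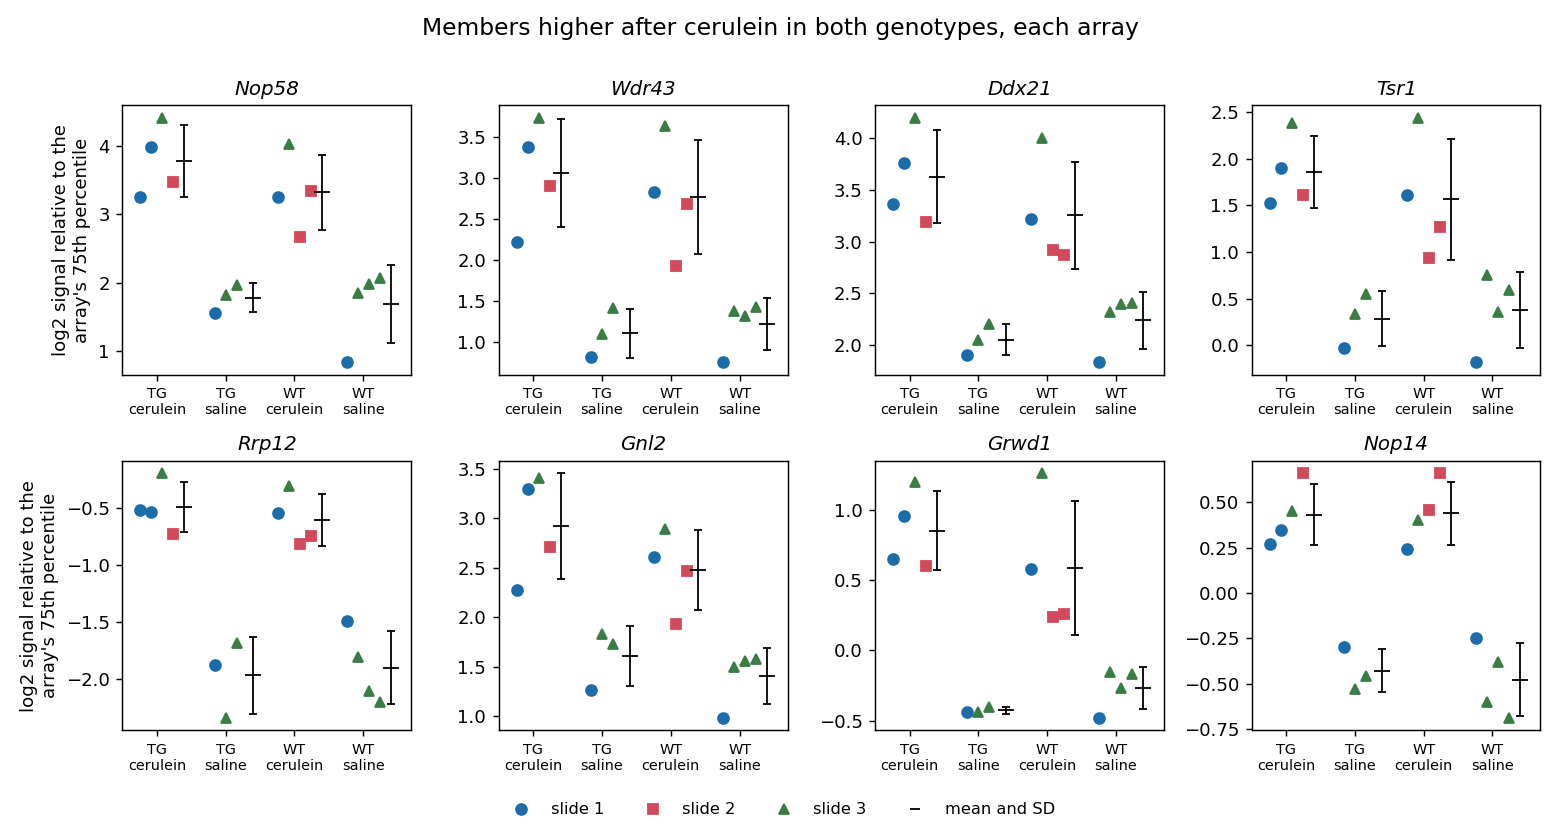
Log2 signal on each array of the 8 genes called in both genotypes, with groups along each horizontal axis, marker shape and colour for the slide, and the group mean and SD beside the points. In each panel every cerulein array lies above every saline array of its genotype, as for Nop58, at 3.25 to 4.42 in TG cerulein and 1.55 to 1.97 in TG saline.

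Of the 13 large subunit genes, 2 rose in each genotype without slide, and 8 rose in TG and 5 in WT with slide. Gnl2, a nucleolar GTPase of the large subunit precursor, was at 2.27, 3.30, 3.41 and 2.71 in TG cerulein, against 1.26, 1.83 and 1.73 in TG saline. Wild type arrays read 2.61, 2.89, 1.93 and 2.47 after cerulein, against 0.98, 1.50, 1.56 and 1.58 after saline. Neither genotype's groups overlapped. Gnl2 rose by 1.32 ± 0.31 in TG (adjusted p = 0.0152) and by 1.07 ± 0.28 in WT (adjusted p = 0.0221), and with slide by 1.59 and 1.44. On slides 1 and 3 alone it was at 1.52 and 1.63 in TG and 1.63 and 1.34 in WT. The TG call was lost without TG saline 2 or TG cerulein 14 (adjusted p = 0.0708 and 0.0547), and the WT call without WT saline 5 or 6 or WT cerulein 9 (adjusted p = 0.0507, 0.0514 and 0.0550).

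Grwd1, whose yeast homologue is a chaperone of a ribosomal protein, was at 0.65, 0.96, 1.20 and 0.60 in TG cerulein, against −0.44, −0.44 and −0.40 in TG saline. In WT pancreas it read 0.58, 1.26, 0.24 and 0.26 after cerulein, against −0.48, −0.15, −0.27 and −0.17 after saline. The TG saline arrays lay within a narrow band, and cerulein and saline did not overlap in either genotype. Grwd1 rose by 1.28 ± 0.25 in TG (adjusted p = 0.00544) and by 0.85 ± 0.23 in WT (adjusted p = 0.0260), and with slide by 1.51 and 1.21. Within slides 1 and 3 it was at 1.25 and 1.62 in TG and 1.06 and 1.46 in WT. Its second probe gave 0.26 in TG and 0.39 in WT, neither called. The WT call was lost without any 1 of the WT saline arrays or WT cerulein 9, with adjusted p from 0.0519 to 0.0667.

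Gnl3, nucleostemin, a GTPase related to Gnl2, was at 1.36, 1.33, 1.86 and 1.19 in TG cerulein, against 0.44, 0.62 and 0.81 in TG saline. WT mice had 1.09, 1.65, 0.85 and 0.96 after cerulein, against −0.24, 0.66, 0.78 and 0.67 after saline. Its groups did not overlap in either genotype. Gnl3 missed the threshold without slide (0.81 ± 0.28 in TG and 0.67 ± 0.26 in WT, adjusted p = 0.0955 and 0.0997) and rose with it (1.10 ± 0.14 and 1.04 ± 0.14, adjusted p = 0.000169 and 0.000287). Nop2, a methyltransferase of the large subunit RNA, was at 2.72, 2.99, 3.51 and 2.71 in TG cerulein, against 2.13, 2.24 and 2.22 in TG saline. In WT mice it was at 2.89, 3.41, 2.25 and 2.29 after cerulein, against 2.14, 2.49, 2.75 and 2.63 after saline. Both slide 2 arrays of WT cerulein lay among the WT saline arrays. Without slide Nop2 was at 0.79 in TG and 0.21 in WT, not called. With slide Nop2 rose by 1.09 ± 0.15 in TG and by 0.66 ± 0.15 in WT (adjusted p = 0.000341 and 0.00955), and the WT call was lost without WT cerulein 10 (0.54, adjusted p = 0.117).

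The PeBoW complex, which processes the RNA of the large subunit, consists of Pes1, Bop1 and Wdr12. Bop1 was at 2.43, 2.61, 3.04 and 2.36 in TG cerulein, against 1.87, 2.10 and 2.25 in TG saline. The WT arrays read 2.32, 2.97, 2.07 and 1.82 after cerulein, against 1.96, 2.30, 2.13 and 2.11 after saline. The TG groups stood apart and the WT groups overlapped. Without slide Bop1 was at 0.54 in TG and 0.17 in WT, not called. With slide Bop1 rose by 0.80 ± 0.14 in TG and by 0.56 ± 0.14 in WT (adjusted p = 0.00137 and 0.0133), and the WT call was lost without WT cerulein 10 (0.39, adjusted p = 0.176). Pes1 was at 0.62 in TG and 0.25 in WT without slide. It rose in TG with slide (0.89 ± 0.20, adjusted p = 0.00738) and was at 0.59 ± 0.20 in WT (adjusted p = 0.0605), while its dimmer probe fell by 0.60 in TG in the same fit (adjusted p = 0.0470). Wdr12 was not called, at 0.34 ± 0.24 in TG and 0.24 ± 0.25 in WT with slide.

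Noc2l, the homologue of yeast Noc2, was at 2.42, 2.47, 3.17 and 2.45 in TG cerulein, against 1.95, 2.17 and 2.26 in TG saline. In WT it was at 2.28, 3.15, 2.27 and 1.87 after cerulein, against 2.02, 2.54, 2.26 and 2.27 after saline. Without slide it was at 0.50 in TG and 0.12 in WT. With slide it rose in TG (0.78 ± 0.16, adjusted p = 0.00511) and narrowly missed the threshold in WT (0.50 ± 0.17, adjusted p = 0.0510). Rrs1, which helps to load the particle of the smallest ribosomal RNA, was at 1.66, 1.74, 2.14 and 1.46 in TG cerulein, against 1.17, 1.31 and 1.39 in TG saline. WT arrays were at 1.27, 2.05, 1.00 and 1.41 after cerulein, against 1.17, 1.51, 1.57 and 1.58 after saline. Both genes had TG groups that did not overlap and WT groups that did. Rrs1 was at 0.46 in TG and −0.03 in WT without slide. It rose with slide in TG (0.70 ± 0.14, adjusted p = 0.00320) and was at 0.31 ± 0.14 in WT (adjusted p = 0.140).

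The remaining large subunit genes were not called without or with slide. Without slide, Noc3l, the Noc3 homologue, was at −0.35 ± 0.31 in TG and −0.24 ± 0.29 in WT. Nop16, a factor of the large subunit precursor, was at 0.12 in TG and −0.23 in WT, and Rrp1b, a homologue of yeast Rrp1, was at 0.18 in TG and −0.00 in WT. Nip7, which acts in processing of ribosomal RNA precursors, was at 0.02 in TG and −0.37 in WT by its brighter probe, while its dimmer probe fell by 0.92 in TG (adjusted p = 0.0305) and by 1.33 in WT (adjusted p = 0.00142). The nucleolar chaperones nucleolin (Ncl) and nucleophosmin (Npm1) were not called in either fit by the probes used. Ncl was at 0.17 ± 0.30 in TG and −0.10 ± 0.27 in WT, and Npm1 at −0.13 ± 0.34 in TG and −0.48 ± 0.31 in WT. Of the 4 other probes of Npm1, 2 were called in TG and 1 in WT with slide, and the largest of these gave 0.99 in TG (adjusted p = 0.00377) and 0.80 in WT (adjusted p = 0.0146).

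Of the 39 genes, 29 had 1 probe and 10 had several. A further probe had the opposite sign to the one used in 5 genes in TG and in 4 in WT without slide. Probe positions within the transcripts were not given, so which part of a transcript each probe reads is not known here.

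The cerulein responses of the 2 genotypes ranked the 39 genes alike, with r = 0.95 and rho = 0.92 across genes, where the arrays differ between genotypes and the slides are shared. The TG response was the larger for 37 of 39 genes without slide and for 34 with slide. It was also the larger for 78 of 78 cytosolic ribosomal protein genes without slide and for 58 with it. The same held for 23 of 24 translation factors in both fits, and for 0 of 7 neutrophil markers. The direction is thus not particular to the 39 genes, and its share over all genes was not counted. No difference between the responses was called by limma, and none had an unadjusted p below 0.05 without slide. With slide as a block, 5 did, namely Bysl, Nolc1, Ddx21, Heatr1 and Rrs1, each with an adjusted p of 1.0. The median of this difference was 0.35 without slide, against 0.07 for all genes. It was 0.17 with slide, 0.03 within slide 1, 0.22 within slide 3 and 0.10 without the slide 2 arrays. The genes called in TG alone, Bysl, Heatr1 and Nolc1, are therefore not shown to differ between genotypes. Bysl came nearest, with a TG response larger by 0.56 ± 0.28 without slide and 0.57 ± 0.24 with it (unadjusted p = 0.0635 and 0.0388).

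After cerulein, TG and WT pancreas differed in none of the 39 genes by limma at an adjusted p below 0.05, where 0.138% of all genes were higher and 0.00577% lower in TG. None had an unadjusted p below 0.05 without slide, and 3 did with slide, Nop16 at 0.38 ± 0.13, Nolc1 at 0.29 ± 0.12 and Heatr1 at 0.22 ± 0.10. TG was the higher for 38 of 39, but also for 78 of 78 cytosolic ribosomal protein genes and 23 of 24 translation factors without slide. Among acinar markers it was the higher for 1 of 13. The median of the 39 was 0.23, against 0.10 for all genes. Slide 2 holds 1 TG and 2 WT cerulein arrays, and the part of slide in this median was not tested. The median was 0.17 with slide and 0.01 without the slide 2 arrays. It was also 0.07 without TG cerulein 15 and 0.42 without WT cerulein 10, the slide 3 arrays of the 2 groups. Markers of fibroblasts and stellate cells also differed between these groups. The log2 of their summed signal (9 of 9 measured) was 6.89 to 7.92 in TG cerulein, against 5.50 to 6.49 in WT cerulein. After cerulein 3 of the 9 were higher in TG (6 with slide), with a median difference of 1.47. The part of this in the values of the 39 genes was not tested.

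After saline, TG and WT pancreas differed in none of the 39 genes at an adjusted p below 0.05 by limma, where 0.0750% of all genes were higher and none lower in TG. The median difference was −0.06 without slide and −0.03 with it. The summed fibroblast and stellate signal was 6.62 to 7.44 in TG saline, against 5.89 to 6.48 in WT saline. Bysl had an unadjusted p below 0.05 without and with slide, at −0.51 ± 0.21 and −0.51 ± 0.18, and Rrp9 with slide only, at −0.68 ± 0.30. The size of the Rrp9 difference leans on WT saline 5, at 0.87, where the other WT saline arrays were at −0.73 to −0.64. Bysl and Rrp9 were also the genes of the 39 in which every TG saline array lay below every WT saline array, where 2.21% of all genes did. None of the 39 had every TG saline array above every WT saline array, where 4.41% of all genes did.

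Other genes of the pathway were read from lists of names. None of the 78 cytosolic ribosomal protein genes was called in either genotype by limma, without or with slide, although without slide an unadjusted p below 0.05 was reached by none in TG and by 46 in WT. With slide as a block, 1 had such a p in TG and 3 in WT. The median of their differences was −0.39 in TG and −0.62 in WT, beside 0.51 and 0.22 for the 39 factors. With slide it was −0.07 in TG and −0.14 in WT, and under quantile normalization −0.03 and −0.12. The size of the negative shift thus depends on slide and scaling, and its calls on single arrays. Without WT cerulein 10, 49 fell in WT (median −0.83), and without WT saline 5, 2 fell. Of all 17339 genes, 3181 and 1836 fell in WT in these fits. With array quality weights 4546 of all genes fell in TG and 4547 in WT. The count of ribosomal protein genes that fell with these weights was 64 in TG and 78 in WT. Many of these genes have near-identical processed copies in the genome, which a probe may also read. The difference between the lists was not tested.

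**Figure D4:**
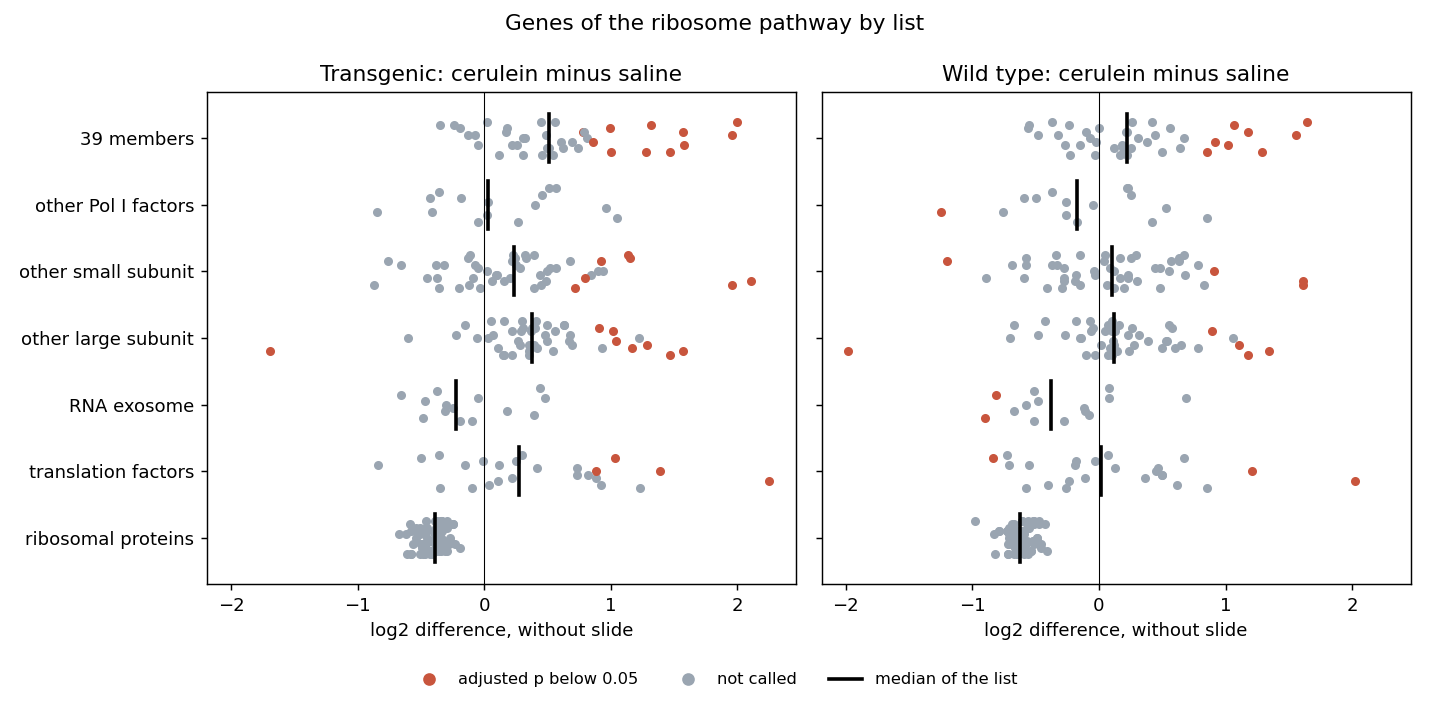
Log2 difference between cerulein and saline without slide for each gene (points) of 7 lists (rows) in TG pancreas on the left and WT pancreas on the right, in red where the adjusted p is below 0.05, with a bar at the median of each list. The ribosomal proteins lie about −0.39 in TG and −0.62 in WT with no red point, while the 39 biogenesis factors spread to 2.0 in TG.

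Of 48 other small subunit factors measured, 7 rose and none fell in TG, and 3 rose and 1 fell in WT. Among all genes 4.78% rose in TG and 5.63% in WT, so the WT count of rises is near that share. Of all genes 3.41% fell in TG and 8.35% in WT. With slide as a block, 21 rose and none fell in TG, and 18 rose and 3 fell in WT. In that fit 15.2% of all genes rose in TG and 13.8% in WT, and 8.35% fell in TG and 7.79% in WT. The counts of the lists below stand beside the same shares. Utp23, a processome protein, rose by 1.96 ± 0.32 in TG and by 1.61 ± 0.29 in WT (adjusted p = 0.00138 and 0.00225), and Utp14b by 2.11 ± 0.41 and 1.61 ± 0.38 (adjusted p = 0.00461 and 0.0111), while Utp25 fell in WT by 1.20 ± 0.27 (adjusted p = 0.00956). Of 47 other large subunit factors, 7 rose and 1 fell in TG, and 4 rose and 1 fell in WT. In the fit with slide, 34 rose and 1 fell in TG, and 28 rose and 1 fell in WT. Tma16 rose by 1.57 in TG and by 1.34 in WT, and Nmd3, the export adaptor of the large subunit, by 1.47 and 1.18. The helicase gene Ddx55 was the one that fell, by 1.69 in TG and by 1.98 in WT (adjusted p = 0.00475 and 0.000678). These counts without slide also turned on single arrays. When 1 array was left out, 2 to 8 of the small subunit and 3 to 9 of the large subunit factors rose in TG, both with their lowest value without TG saline 3 and their highest without WT cerulein 10. Of all 17339 genes, 509 rose in TG without TG saline 3 and 1001 without WT cerulein 10. In WT, 3 of each list fell without WT cerulein 10, where 3181 of all genes did.

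Of 15 other genes of RNA polymerase I transcription and early nucleolar factors, none was called in TG without slide, where 5 had an unadjusted p below 0.05 in limma, and Znhit3 alone fell in WT (−1.25), with 5 falling without WT cerulein 10. In the fit with slide, 6 rose in TG and 5 in WT, led by Taf1b and Taf1d, factors that recruit the polymerase to its promoter. Of 14 genes of the RNA exosome, which degrades and trims RNA, none was called in TG without slide, where 2 had an unadjusted p below 0.05, and Exosc6 and Exosc7 fell in WT (−0.90 and −0.81), with 6 falling without WT cerulein 10. Of all 17339 genes, 3181 fell in WT without that array. In the fit with slide, 4 rose and 1 fell in TG, and Dis3, the catalytic subunit, alone rose and 3 fell in WT. The snoRNA host genes carry guide RNAs in their introns, and 6 were measured. Snhg1 and Snhg3 rose in both genotypes, Snhg1 by 1.50 in TG and 0.94 in WT and Snhg3 by 1.47 and 1.23, and 5 of the 6 rose in both with slide. Neither host gene was called in WT without WT saline 5 or without WT saline 6, and 1 was called in TG without TG saline 3 or without TG saline 4. Of 24 translation initiation and elongation factors, 4 rose in TG and 2 rose and 1, Eif2b1, fell in WT. In the fit with slide, 14 rose in TG and 11 in WT, and none fell. Without slide, 2 rose in TG when any 1 TG saline array, TG cerulein 14 or TG cerulein 15 was left out. In these fits 509 to 635 of all genes rose in TG. Eif1a, which helps the ribosome scan for a start codon, rose by 2.25 ± 0.34 in TG and by 2.02 ± 0.32 in WT, and Eif2b3, a subunit of a guanine nucleotide exchange factor of initiation, by 1.39 and 1.21.

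Of 10 genes of the MYC network measured, 1 rose and 1 fell in TG, and none rose and 3 fell in WT. Of all genes 3.41% fell in TG and 8.35% in WT. Myc, the transcription factor gene, averaged 2.16 ± 0.43 in TG cerulein and 0.76 ± 0.38 in TG saline, and 1.90 ± 0.49 in WT cerulein and 1.00 ± 0.44 in WT saline (SD, n = 4, 3, 4 and 4). It rose in TG by 1.39 ± 0.33 (adjusted p = 0.0171), a call lost without TG saline 2 or 3, and was not called in WT without slide (0.90 ± 0.31, adjusted p = 0.0639). With slide it rose in both, by 1.70 ± 0.24 in TG and by 1.33 ± 0.25 in WT (adjusted p = 0.000439 and 0.00259). Mycn, its paralogue, fell by 1.62 in TG (adjusted p = 0.0375) and by 2.59 in WT (adjusted p = 0.000907), the TG call being lost without TG saline 3 or 4, TG cerulein 13, 14 or 16, or WT saline 6 or 8. Its mean was −4.23 in WT cerulein, where its probe was well above background on 3 of 4 arrays. The size of the WT fall is thus less well measured. Max, the shared partner, was at −0.26 in TG and fell by 0.61 in WT (adjusted p = 0.0341), and Mnt, a repressor that also pairs with Max, was at 0.33 in TG and 0.28 in WT, not called. Mlx, a further member of the family, fell in WT by 0.93 and was at −0.32 in TG. Mycl was not among the genes measured here. Of 14 growth and nucleotide synthesis genes often counted as MYC targets, 3 rose in TG and none in WT, where 3 had an unadjusted p below 0.05 in limma. They were Ctps, of cytidine nucleotide synthesis, at 0.92 in TG and 0.67 in WT, Umps, of pyrimidine synthesis, at 1.03 in TG and 0.77 in WT, and Hk2, a hexokinase, at 1.56 in TG and −0.15 in WT. Without TG saline 2, TG saline 3 or TG cerulein 15 none rose in TG, where 585, 509 and 635 of all genes did. In the fit with slide, 5 rose in TG and 3 in WT, Umps and Ctps in both. Of 8 genes of the p53 response to nucleolar stress, Cdkn1a, a cell cycle inhibitor, was the one called in each genotype without slide, and rose by 3.44 ± 0.32 in TG and by 3.45 ± 0.30 in WT. The fit with slide also called Mdm2 in TG (0.93) and Sesn2, a stress response gene, in TG (0.57) and WT (0.50).

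Signals of cell type markers moved with the treatment and the slide, and those of fibroblasts and stellate cells also with genotype, as given above. Islet markers were higher in TG for 8 of 8 after cerulein and 7 of 8 after saline (median differences 0.55 and 0.53). Neutrophil markers were higher in TG for 5 of 7 after cerulein and 7 of 7 after saline (medians 0.79 and 1.16). None of these was called without slide. With slide, Gcg alone was called, after cerulein. The log2 of the summed signal of 13 acinar markers, all measured, was 13.28 to 14.31 in TG cerulein, against 14.22 to 14.82 in TG saline. It was 13.60 to 14.78 in WT cerulein, against 14.34 to 15.13 in WT saline. The ranges overlap in both genotypes, and the lowest arrays were those of slide 2, at 13.28 to 13.69. For 7 of 8 macrophage markers measured, the sum was 5.04 to 5.46 in TG cerulein and 5.51 to 5.59 in TG saline, and 5.14 to 5.39 in WT cerulein and 5.37 to 5.70 in WT saline. The sum of 7 neutrophil markers was 6.45 to 7.55 in TG cerulein and 7.14 to 7.61 in TG saline, and 6.27 to 7.50 in WT cerulein and 6.65 to 7.51 in WT saline. The mean of this sum was lower after cerulein, but most single neutrophil markers went the other way. Their median difference was 0.39 in TG (5 of 7 above 0) and 0.77 in WT (6 of 7), and 1 rose in TG (Clec4d) and 3 in WT. For the 7 macrophage markers the median difference was 0.05 in TG and 0.08 in WT, and Cd14 rose in both. A sum is weighted to the brightest markers of its list. The sum of 6 endothelial markers was 5.36 to 6.60 in TG cerulein and 6.61 to 7.37 in TG saline, and 6.05 to 7.05 in WT cerulein and 6.92 to 7.50 in WT saline. In whole tissue a smaller number of cells of a type and less RNA per cell cannot be told apart, and the part of these shifts in the values of the 39 genes was not tested.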

How the data were processed

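A Cy3-labelled total RNA sample was read on each Agilent array. The authors' deposited scanner files give background-subtracted intensity per spot as written, per the file headers, by Agilent's Feature Extraction software (10.7.3.1), and flag columns of another kind (0 or 1). Their deposited series table holds log2 values of 42482 probes (42379 of them in the scanner files), whose normalization between arrays is not given in the sources used here. Its column medians were 6.56 to 6.93 and, set against each array's own scanner values in log2, it had r of 0.987 to 0.998 and slopes of 0.989 to 0.996, so it is on a log2 scale and not centred per gene.

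Spots were averaged per probe (59305 non-control spots, 55681 probes), 105 to 188 flagged outlier spots per array were left out and 0 were saturated. Log2 intensity minus the 75th percentile of the array was used. Probes well above background on at least 3 arrays were kept (42187), named through RefSeq accessions (27235 probes of 20660 genes had a symbol), and each of 17339 genes was read from its brightest probe. Limma 3.58.1 in R 4.3.3 (lmFit and eBayes, two-sided, Benjamini-Hochberg over genes within a comparison) was fitted on 4 group means of 15 arrays, with 11 residual and 3.54 prior degrees of freedom. With slide as a fixed block 9 remained. Slides come from the barcode in the file headers. On data simulated for the WT cerulein comparison over 17339 genes, 17% of genes changed by log2 1 and 87% of those changed by log2 2 were called. Whether these shares hold for the measured arrays, which also differ by slide, was not tested. The number of arrays limits the precision. Replicates are animals per the labels.

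The 39 genes and the other lists were chosen with earlier results of these data known, so counts over them have no test. Genes with values by array are those called after cerulein, or called with slide and not overlapping. The 2 leading called genes of each other list, and Btc, Myc, Mycn, Mycl, Max and Mnt, are named, as are further genes where a count is small. Promoters are from RefSeq (GRCm38.p6). Alternatives were slide as a fixed or random block, without slide 2, within slides, normexp (on the median signal, offset 50, the mean not being among the columns), quantile normalization, median centring, the series table, 2 other filters, the mean of all probes, array weights, fits of the compared groups alone, and leaving out each array.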

Additional observations from a re-analysis of the deposited data

Results flagged for a closer look

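In groups of 4 arrays, a value stands apart where its gap to the nearest other value is too large a share of the range of the group (Dixon's test at its usual critical value). Of 120 groups checked, 12 had such a value, and chance gives about 1 in 20. In 11 of them the array was WT saline 5, the one WT saline array on slide 1. It was the lowest of its group for the median of the 39 genes, at 0.98 against 1.60 for the next array. It was also the lowest for Fbl (2.02, next 2.46), Ddx21 (1.83, next 2.32), Wdr43 (0.75, next 1.32), Wdr75 (0.89, next 1.60) and Heatr1 (2.30, next 2.65). The same held for Noc3l (0.51, next 1.66), Gnl2 (0.98, next 1.5), Gnl3 (−0.24, next 0.66) and Rrs1 (1.17, next 1.51). For Rrp9 it was the highest, at 0.87 with the next at −0.64. The 39 genes share their deviations, so these are not 11 separate signs. Without this array 4 of the 39 were called in WT, and 13 in TG through the shared spread. Of all genes, 927 rose in WT and 833 in TG in that fit. The remaining value was TG cerulein 15, the one TG cerulein array on slide 3, which was the highest for Noc2l at 3.17, with the next at 2.47. Within their own groups, slide and array cannot be told apart for these values. For Rrp9 the other slide 1 arrays were not raised. TG saline 2 was at −0.92, TG cerulein 13 and 14 at −0.29 and −0.21, and WT cerulein 9 at −0.26. Each lay within the range of its group on the other slides. The part of slide in these values was not tested.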

How the results depend on the processing

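The number of the 39 genes called after cerulein was 11 in TG and 8 in WT. Of all 17339 genes, 829 rose in TG and 977 in WT. Slide as a fixed block gave 24 and 19, and slide as a random block (correlation 0.667) also 24 and 19. Of all genes, 2637 rose in TG and 2385 in WT with the fixed block, and 2419 and 2187 with the random block. Median centring gave 7 in TG and 4 in WT, and fits of the compared groups alone 6 and 5. Of all genes, 529 rose in TG and 630 in WT with median centring, and 626 and 751 in fits of the compared groups alone. Array weights gave 20 in TG (19 higher and Noc3l lower) and 14 in WT (9 higher, with Fbl, Npm1, Nop10, Polr1a and Nip7 lower). Of all 17339 genes, array weights called 3166 higher and 4546 lower in TG, and 2552 higher and 4547 lower in WT. Normexp background gave 13 in WT and quantile normalization 15 (14 higher and Nop10 lower). Of all genes, 925 were higher and 2277 lower in WT with normexp, and 1298 higher and 2059 lower with quantile normalization. With the mean of all probes Nip7 was lower in WT, and Nolc1 in TG turned to −0.17. Without WT cerulein 10 Nop10 was lower in WT. Normexp also moved the median of all genes to −0.20 in TG and −0.23 in WT. Leaving out 1 array gave 6 to 13 in TG and 4 to 9 in WT without slide, and 22 to 27 and 13 to 21 with slide (fits with slide added after seeing the data). Of all genes, 585 rose in TG without TG saline 2 (6 of the 39) and 833 without WT saline 5 (13). In WT 927 rose without WT saline 5 (4), and 1259 rose and 3181 fell without WT cerulein 10 (9). With slide, 2113 rose in TG without TG saline 4 (22) and 2789 without WT cerulein 11 (27). In WT with slide, 1340 rose without WT cerulein 10 (13) and 2326 without TG cerulein 16 (21). The median in WT within slide 3 was 0.68. Leaving out 1 array, the medians were 0.34 to 0.63 in TG, 0.05 to 0.33 in WT, 0.07 to 0.42 for TG against WT after cerulein, −0.18 to 0.03 after saline and 0.15 to 0.50 for the difference of responses, and the count of called genes in these last 3 comparisons was 0 throughout, as in the other settings run. The cause of these shifts was not tested. No paired analysis was possible because the groups share no animal numbers. Signal over background did not limit the 39 genes, all of which were above it on 15 arrays.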
